A study of Homo sapiens with 4 samples.

Results

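The cytosolic ribosomal protein genes were followed in K562 cells, a human erythroleukemia line, before and after hemin. Members were taken by gene symbol: RPL or RPS followed by a number, with an optional letter and paralog suffix, together with RPSA, RPLP0, RPLP1 and RPLP2. This rule found 84 of the 61498 genes in the files, 32 of the small and 52 of the large ribosomal subunit, and symbols of pseudogenes did not match it. Of the 84 genes, 7 are paralogs whose symbol ends in L or L1 and 77 are the other members. Poly(A) RNA was sequenced in 2 untreated libraries and in 2 libraries of cells kept for 108 h with 50 µM hemin, an iron porphyrin that induces the erythroid program in this line. All libraries came from the same unmodified cell line, and the sources used here do not say whether replicates were separate cultures, so p-values measure only the spread between these libraries.

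Each cytosolic ribosome is built from a small subunit, which reads the mRNA, and a large subunit, which joins the amino acids. Their proteins are needed in equal numbers, apart from the acidic stalk proteins P1 and P2, which are present in several copies. Most of their mRNAs begin with a C followed by an unbroken run of pyrimidines, the 5′ terminal oligopyrimidine (TOP) motif, through which mTOR signalling and LARP1 control their translation as a group. Mutations of several of these genes, RPS19 first among them, cause Diamond-Blackfan anemia, in which red cell precursors fail.

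The total of expected counts, the estimated reads per gene, was 7801824 and 7455447 in the untreated libraries and 7513843 and 8241534 in the hemin libraries. The erythroid regulator GATA1 stood between 112.63 and 121.06 TPM in the 4 libraries, and the embryonic globin HBE1 stood at 2228 and 2286 TPM without and 2972 and 2902 TPM with hemin. TPM is the transcript level scaled for gene length and for the total of the library, on which genes can be compared with each other. In bulk RNA, fewer cells expressing a gene and less RNA per cell cannot be told apart. The defining platelet genes GP9, PF4 and PPBP, the T cell genes CD3E and CD2 and the B cell gene MS4A1 were listed at 0 in every library. The epithelial gene EPCAM was present at 42.35 to 49.22 TPM, whereas CDH1 was listed at 0.

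The first transcribed bases show what most members share. RefSeq start windows (GRCh38.p14) were found for 67 of the 84 members. A C followed by at least 4 bases that are each C or T began exactly at a listed start in 46 of 62 members that are not paralogs, or 74.2%, and in 1 of 5 paralogs. Among all 27305 genes of the same table this share was 5.14%. When the tract could begin up to 10 bases to either side of the start, 57 of the 62 members and 38.4% of all genes had it. Only the strand with the same letters as the RNA was read, and the match is a description of letters, not proof of a motif in use. The median tract was 8 bases long and the longest was 19.

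The windows below run from 15 bases before the start to 15 bases from it on, with the tract that begins at the start base in capitals. The first set holds the stalk proteins, the anemia genes RPS19 and RPS14 and the RPL36A and RPL39 genes described later.
RPLP0, chr12:120201097-120201126, minus strand: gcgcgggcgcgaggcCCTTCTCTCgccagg
RPLP1, chr15:69452803-69452832, plus strand: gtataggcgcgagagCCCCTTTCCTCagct
RPLP2, chr11:809952-809981, plus strand: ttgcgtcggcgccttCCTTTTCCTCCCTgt
RPS19, chr19:41860240-41860269, plus strand: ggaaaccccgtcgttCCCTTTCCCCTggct
RPS14, chr5:150449725-150449754, minus strand: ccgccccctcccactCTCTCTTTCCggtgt
RPL36A, chrX:101390996-101391025, plus strand: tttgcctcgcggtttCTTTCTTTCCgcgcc
RPL39, chrX:119791616-119791645, minus strand: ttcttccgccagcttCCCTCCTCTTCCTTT

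The tract of RPL39 runs on beyond the window. RPS19 has a further listed start with no tract. The next set places paralogs beside the genes they are named after, and adds RPS26, the member with the highest fitted increase.
RPS27, chr1:153990747-153990776, plus strand: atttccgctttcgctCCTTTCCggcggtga
RPS27L, chr15:63157463-63157492, minus strand: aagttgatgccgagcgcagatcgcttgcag
RPL26, chr17:8383179-8383208, minus strand: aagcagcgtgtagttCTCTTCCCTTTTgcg
RPL26L1, chr5:172958714-172958743, plus strand: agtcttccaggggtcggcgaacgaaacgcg
RPL22, chr1:6199581-6199610, minus strand: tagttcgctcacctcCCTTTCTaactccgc
RPL22L1, chr3:170870181-170870210, minus strand: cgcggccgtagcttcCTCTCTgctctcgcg
RPL7L1, chr6:42879601-42879630, plus strand: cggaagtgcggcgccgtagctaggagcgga
RPL10L, chr14:46651767-46651796, minus strand: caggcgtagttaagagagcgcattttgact
RPS26, chr12:56041903-56041932, plus strand: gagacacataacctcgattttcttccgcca

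RPL22L1 was the paralog with a tract at its start. RPS27L, RPL26L1, RPL7L1 and RPL10L had none there and none beginning within 10 bases of it. RPS26, whose listed start is a G, had none at the start itself but had one beginning within 10 bases.

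The ribosomal protein genes were a large part of the transcriptome in both conditions. Their share of all TPM was 14.2% and 14.6% in the untreated libraries and 14.3% and 13.6% in the hemin libraries. The groups overlapped, with means of 14.4% ± 0.322 and 14.0% ± 0.468 (SD, n = 2 each). Their share of expected counts was 6.33% ± 0.193 without and 6.15% ± 0.174 with hemin (SD, n = 2 each), again with overlapping libraries. With the mitochondrial genome left out of the total, the share of TPM was 18.7% and 19.3% without and 18.6% and 18.1% with hemin, and both hemin libraries were then lower. The small-subunit genes supplied 39.1% ± 0.188 of the members' TPM in untreated cells and 38.8% ± 0.00540 after hemin (SD, n = 2 each), and here too both hemin libraries were lower. In bulk RNA, a share can move with any other abundant RNA, and genes of the mitochondrial genome held 23.1% to 24.7% of TPM here.

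**Figure D1:**
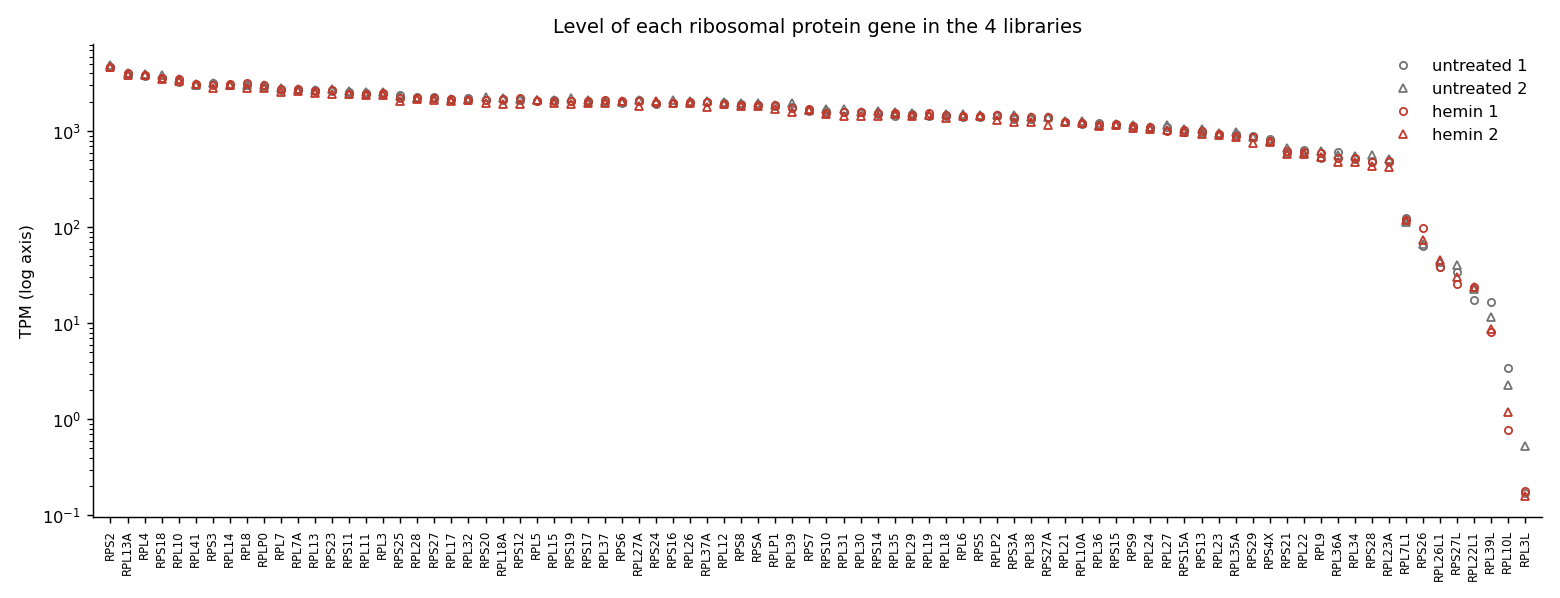
TPM (log axis) of the 84 ribosomal protein genes in the 4 libraries, ordered by mean; circles and triangles are replicates 1 and 2, grey untreated and red hemin. The curve is shallow from RPS2 at 4695 to RPL23A at 474 TPM and then drops to the paralogs and RPS26.

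Levels within the family were graded, and the order was nearly the same in both conditions. Over the 84 members, Spearman's rho between the mean TPM of the conditions was 0.993, a description across genes that share libraries. Of the 77 members that are not paralogs, 64 stood above 1000 TPM on average, and members made up 56 of the 100 genes with the highest mean TPM. The median of the 77 genes was 1916 TPM without and 1851 TPM with hemin, with quartiles of 1241 and 2252 TPM in untreated cells.

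RPS2, a small-subunit protein near the mRNA entry channel (chr16:1962058-1964841), was the most abundant member. It was measured at 4678 and 4840 TPM in untreated and at 4631 and 4630 TPM in hemin-treated cells. RPL13A, a large-subunit protein also known for a role in translational silencing in monocytes, followed at 3894 and 4005 TPM without and 4007 and 3837 TPM with hemin. RPL4, which lines part of the peptide exit tunnel, stood at 3808 and 3903 TPM without and 3839 and 3813 TPM with hemin. For RPL13A and RPL4 the libraries of both conditions overlapped, and for RPS2 both hemin libraries were lower in TPM but not in scaled counts.

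Change after hemin was tested for 82 members, among 14458 genes with enough counts, with edgeR's quasi-likelihood test on the expected counts. RPL3L and RPL10L did not pass the filter on low counts. At an adjusted p below 0.05, 0 of 82 members were called higher, where 7.00% of all tested genes were, and 0 were called lower, where 7.14% were. At an unadjusted p below 0.05 there were 4 members higher and 6 lower, beside 29.4% of all genes in either direction. DESeq2 also called 0 members, where it called 4.07% of all genes higher and 3.49% lower, and 7 members had an unadjusted p below 0.05, beside 17.0% of all genes. The median log2 fold change was -0.018 over the members and -0.0048 over all tested genes, and 32 members had a positive and 50 a negative value.

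The estimates were narrow as well as small. The median standard error was 0.04 on the log2 scale for the members and 0.11 for all tested genes. The 95% interval of 77 of the 82 members lay wholly between -0.32 and 0.32 on the log2 scale, as it did for 31.4% of all genes tested. Members were also among the most deeply counted genes, and the part of depth in this contrast was not tested. The 5 members whose interval reached beyond these bounds were RPS26, RPS27L, RPL22L1, RPL26L1 and RPL39L, of which RPS26 alone is not a paralog. In CPM, the count scaled by library size and TMM factor, the libraries of the 2 conditions did not overlap for 22 of 82 members (10 higher and 12 lower with hemin), or 26.8%, beside 57.3% of all tested genes.

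**Figure D2:**
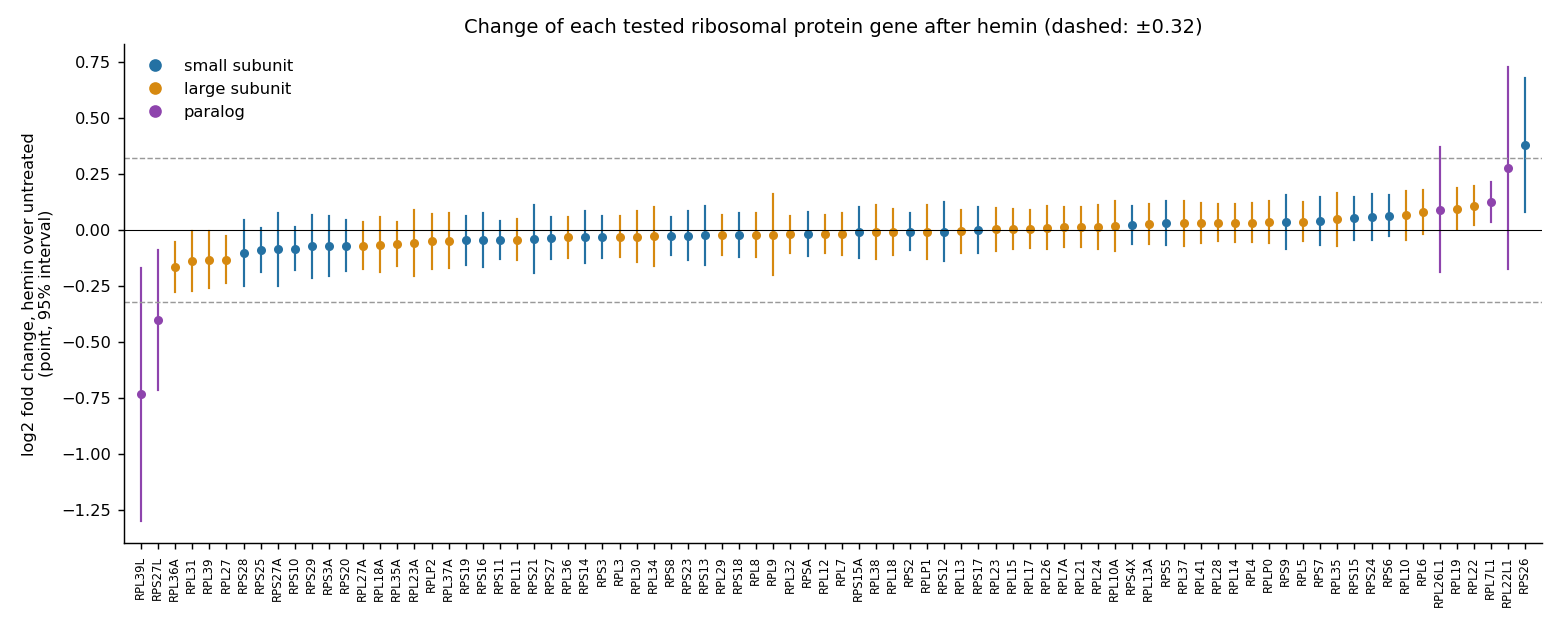
Log2 fold change (hemin over untreated) of each of the 82 tested members with its 95% interval, ordered by value; blue is small subunit, orange large subunit and purple paralogs, and dashed lines mark a log2 fold change of 0.32 in either direction. Most points lie close to 0, and the widest intervals belong to RPL39L, RPL22L1, RPS27L and RPS26.

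By subunit, the 31 small-subunit members that are not paralogs had a median log2 fold change of -0.03, with 23 values below 0. The 46 large-subunit members had a median of -0.01, with 25 values below 0. Members with a pyrimidine tract at a listed start had a median of -0.02 (46 genes) and those without one a median of 0.01 (16 genes). These differences were not tested.

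The stalk proteins recruit translation factors to the large subunit, and none of them passed the threshold. RPLP0, the base of the stalk, stood at 2912 and 3008 TPM without and 3031 and 2852 TPM with hemin, with a log2 fold change of 0.03 and a 95% interval from -0.06 to 0.13. RPLP1 stood at 1812 and 1882 TPM without and 1892 and 1721 TPM with hemin, and its interval ran from -0.13 to 0.11. RPLP2 stood at 1469 and 1487 TPM without and 1480 and 1309 TPM with hemin, and its interval ran from -0.17 to 0.07. In each of these genes the untreated and hemin libraries overlapped.

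Among 18 genes linked to Diamond-Blackfan anemia, all of them tested, 0 were called by edgeR in either direction, beside 14.1% of all tested genes. At an unadjusted p below 0.05 there were 1 higher and 2 lower, beside 29.4% of all tested genes in either direction. The median log2 fold change of the 18 genes was -0.02. RPS19, a small-subunit protein needed for rRNA maturation (chr19:41860255-41872925), was measured at 2061 and 2219 TPM without and 2063 and 1910 TPM with hemin. Its log2 fold change was -0.05 ± 0.05 (SE; edgeR adjusted p = 0.579). RPL5 and RPL11, which with 5S rRNA bind and inhibit MDM2, had log2 fold changes of 0.04 (edgeR adjusted p = 0.58) and -0.04 (adjusted p = 0.539). RPS14, the small-subunit gene deleted in the 5q- syndrome, had a log2 fold change of -0.03, with an interval from -0.15 to 0.08.

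The member with the highest fitted increase was RPS26, a small-subunit protein at the mRNA exit channel (chr12:56041351-56044697). Its expected counts were 232 and 236 in untreated and 338 and 273 in hemin-treated cells, or 64.25 and 67.65 TPM against 98.25 and 74.03 TPM. Both hemin libraries were higher, and hemin replicate 1 stood apart from replicate 2. The log2 fold change was 0.38 ± 0.13 (SE; edgeR adjusted p = 0.0892), which missed the threshold. Without hemin replicate 2 it was 0.58 and without hemin replicate 1 it was 0.16, so its size depended on the hemin library used. With all 4 libraries, whether it passed the threshold depended on the setting. Adding the counts of pseudogenes named after RPS26 gave 0.39 (edgeR adjusted p = 0.0427). Dropping the count filter also gave 0.39 (edgeR adjusted p = 0.00199). It missed the threshold with at least 20 counts per library (edgeR adjusted p = 0.056) and with DESeq2 (adjusted p = 0.134).

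RPS26 was also the least abundant member that is not a paralog, at 76.0 TPM on average, whereas the next, RPL23A, stood at 474 TPM. It had the largest posterior SD of the tested members, 6.92% of its count, a measure from RSEM of how uncertainly reads were divided between similar genes. With its pseudogenes added, its level was 92.0 TPM. The cause of its low level was not tested.

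RPL36A, a large-subunit protein, had the smallest p among the members. It stood at 602 and 566 TPM without and 526 and 479 TPM with hemin, and both hemin libraries were lower. Its log2 fold change was -0.17 ± 0.05 (SE; edgeR adjusted p = 0.0531), and the interval ran from -0.28 to -0.06. Its near-identical relative RPL36AL, whose symbol the rule does not take, had a log2 fold change of -0.09 (adjusted p = 0.345). The posterior SD of RPL36A was 2.94% of its count. With all 4 libraries, whether RPL36A passed the threshold depended on the setting. It passed with library size only (edgeR adjusted p = 0.0262), at least 20 counts per library (0.0335), posterior mean counts (0.0274) and the length correction (0.02255). Settings in which it missed included no count filter (edgeR adjusted p = 0.0539), pseudogene counts added (0.0545), a replicate block (0.0601) and DESeq2 (adjusted p = 0.158).

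RPL9, the large-subunit member with the largest posterior SD after RPS26, at 3.91%, stood at 523 and 626 TPM without and 592 and 540 TPM with hemin, and its log2 fold change of -0.02 had an interval from -0.20 to 0.16.

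The paralogs were expressed far below the genes they are named after, and they differed among themselves. RPL7L1, a nucleolar protein of ribosome assembly, was the most abundant at 125.84 and 112.34 TPM without and 120.12 and 119.30 TPM with hemin, and RPL7 stood at 2705 TPM on average, 22.7 times as high. On scaled counts RPL7L1 was higher in both hemin libraries, with a log2 fold change of 0.12 ± 0.04 (SE; edgeR adjusted p = 0.0675), whereas its TPM overlapped. RPL7 had a log2 fold change of -0.02 (adjusted p = 0.83).

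RPL22L1 and RPL22 are RNA-binding paralogs, of which RPL22 represses RPL22L1. RPL22L1 was counted 50 and 63 times without and 66 and 72 times with hemin, with a log2 fold change of 0.28 and an interval from -0.17 to 0.73. It was 0.08 without untreated replicate 1 and 0.50 without untreated replicate 2. RPL22 stood at 612 TPM without and 594 TPM with hemin, while its log2 fold change on counts was 0.11 (edgeR adjusted p = 0.0957). The TPM and count values of RPL22 thus pointed in opposite directions, and with the test on log2(TPM + 1) it was -0.04.

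RPL26L1 stood at 38.95 and 43.99 TPM without and 38.35 and 45.90 TPM with hemin, 47.7 times below RPL26 on average. Its interval ran from -0.19 to 0.37 and that of RPL26 from -0.09 to 0.11. These libraries overlapped for both genes.

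RPL39L, a paralog known from male germ cells and tumours, had the lowest fitted value of all tested members. Its counts were 63 and 43 without and 30 and 34 with hemin, and both hemin libraries were lower. The log2 fold change was -0.73 ± 0.25 (SE; edgeR adjusted p = 0.083), with an interval from -1.30 to -0.17. Without untreated replicate 1 it was -0.47. RPL39, its namesake at the exit of the peptide tunnel, stood at 1810 and 1958 TPM without and 1754 and 1605 TPM with hemin, with a log2 fold change of -0.13 (adjusted p = 0.149). Leaving out 1 library moved it to between -0.06 (untreated replicate 2 left out) and -0.20 (untreated replicate 1 left out).

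RPS27L, a p53 target in other cells, was counted 124 and 141 times without and 95 and 107 times with hemin. Its log2 fold change was -0.40 ± 0.14 (SE; edgeR adjusted p = 0.0867), and both hemin libraries were lower. Without untreated replicate 2 the log2 fold change was -0.26. RPS27 had a log2 fold change of -0.04 (adjusted p = 0.609).

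RPL10L, a testis paralog of the large subunit, was counted 14 and 9 times without and 3 and 5 times with hemin. RPL3L, a paralog of heart and skeletal muscle, was counted 2 and 6 times without and 2 and 2 times with hemin. Neither was tested. RPL10 stood at 3392 TPM and RPL3 at 2481 TPM on average, with log2 fold changes of 0.06 and -0.03 (edgeR adjusted p = 0.42 and 0.682).

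**Figure D3:**
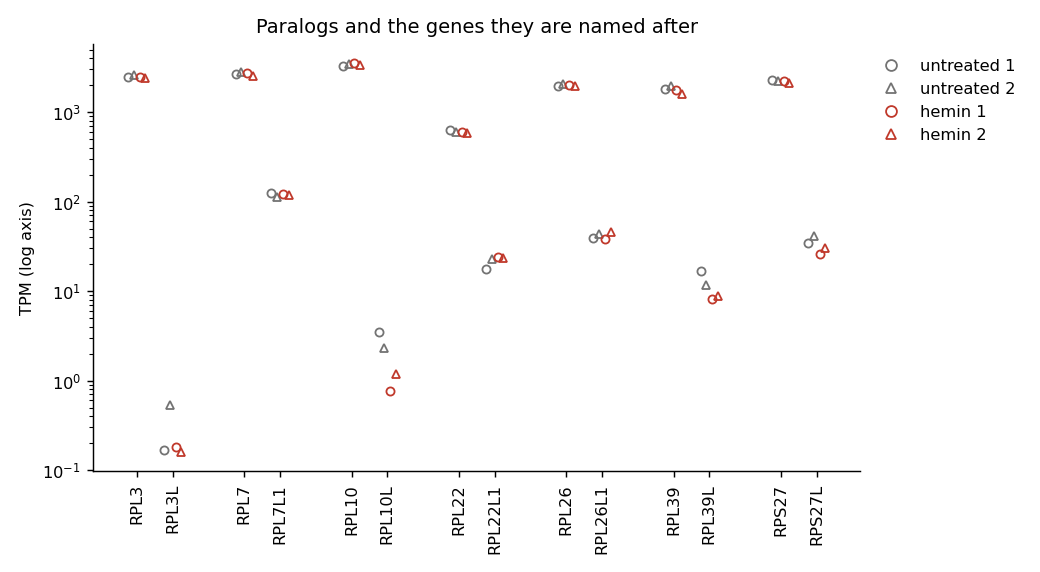
TPM (log axis) of each paralog beside its namesake in the 4 libraries; symbols as in the plot of member levels. Every paralog lies below its namesake, from RPL7L1 at 119 against RPL7 at 2705 TPM to RPL3L at 0.26 against RPL3 at 2481 TPM.

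The members moved together between libraries of the same condition. From untreated replicate 1 to untreated replicate 2 their median scaled level differed by 0.08 on the log2 scale, with 76 of 82 members higher in replicate 2, beside 51.3% of all tested genes. From hemin replicate 1 to hemin replicate 2 the median differed by -0.05. Here 65 members were lower and 17 higher in replicate 2, where 49.8% of all tested genes were higher. Across conditions the median ranged from -0.08 (untreated replicate 2 to hemin replicate 2) to 0.06 (untreated replicate 1 to hemin replicate 1). The median difference between the untreated replicates was thus at least as large as that between any untreated and any hemin library. These pairs share libraries and no test was made of them.

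**Figure D4:**
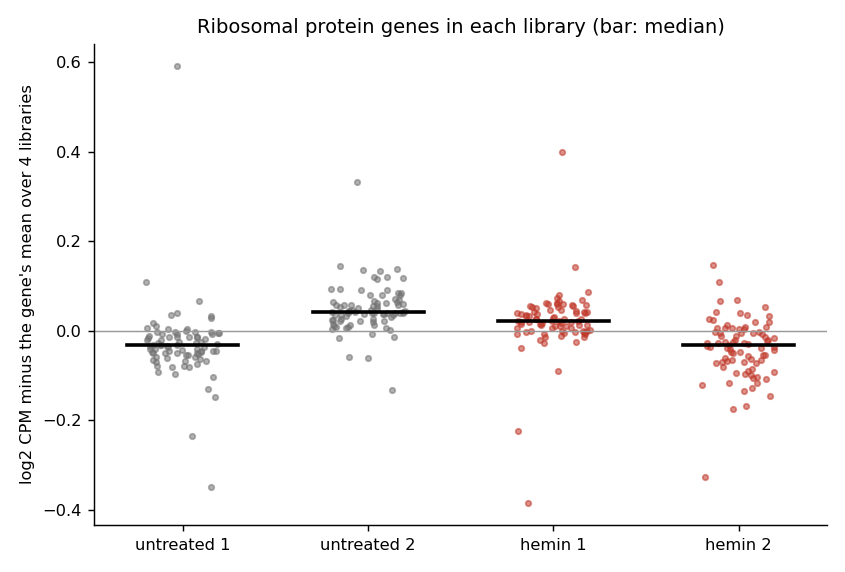
Log2 CPM of the 82 tested members minus each gene's mean over the 4 libraries; each point is a gene and bars are medians. Untreated replicate 2 and hemin replicate 1 lie above 0 and the other libraries below it, so the order of libraries does not follow the condition.

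Reads were also assigned to similar genes elsewhere in the genome. The files hold 1295 pseudogenes named after members, which together carried 2.53% ± 0.0465 of the family's counts without and 2.60% ± 0.0962 with hemin (SD, n = 2 each). The share of pseudogenes exceeded 10% for 4 members, RPL23A, RPS28, RPL22 and RPL7, which were picked out after their values were seen. It was 64.8% for RPL23A and 43.8% for RPS28, so that their levels of 474 and 490 TPM rose to 1691 and 1599 TPM when the pseudogenes were added. Reads of near-identical copies may be divided wrongly, and whether this happened for these members was not tested. Their levels depend on whether the pseudogenes are added. Their posterior SD was 2.67% of the count for RPL23A, 1.72% for RPS28, 1.39% for RPL22 and 1.16% for RPL7. Across the family the posterior SD was below 1% of the count for 73 of 84 members.

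Genes that act with the ribosomal proteins were counted from lists written from general knowledge. Of 8 dedicated chaperones of ribosomal proteins, 1 rose and 0 fell, beside the 7.00% and 7.14% of all genes. This was GRWD1, an escort of RPL3, with 386 and 376 counts without and 504 and 507 with hemin and a log2 fold change of 0.40 ± 0.07 (SE; edgeR adjusted p = 0.0069). Its TPM overlapped between conditions, at 32.09 and 31.14 without and 36.61 and 31.95 with hemin, and limma on log2(TPM + 1) gave 0.11 (adjusted p = 0.636).

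Of 17 other mRNAs with a TOP motif, mainly translation factors, 4 rose and 0 fell, beside 7.00% and 7.14% of all genes, with a median log2 fold change of 0.08. The one with the smallest p was NPM1, a nucleolar protein of ribosome assembly, at 2144 and 2201 TPM without and 2539 and 2540 TPM with hemin. Its log2 fold change was 0.25 ± 0.04 (SE; edgeR adjusted p = 0.00395), and the call was lost with limma on log2(TPM + 1) (adjusted p = 0.0925). That limma setting called only 14 of 14458 genes higher and 33 lower, where edgeR called 1012 and 1033. The other TOP mRNAs, named here because edgeR called them, were PABPC1 (log2 fold change 0.19), HNRNPA1 (0.21) and BTF3 (0.14). Their edgeR adjusted p were 0.0102, 0.00718 and 0.0477, the last close to the threshold. The start windows of this list were not examined, and its difference from the members was not tested.

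Of 15 regulators of TOP mRNAs, 3 rose and 2 fell, beside 7.00% and 7.14% of all genes, with a median of 0.11. LARP1, which binds the cap and the TOP motif, stood at 190 and 179 TPM without and 208 and 224 TPM with hemin and had a log2 fold change of 0.26 ± 0.04 (SE; edgeR adjusted p = 0.00349; limma on log2(TPM + 1), adjusted p = 0.168). TIA1, an RNA-binding protein of stress granules, fell from 113 and 110 TPM to 75.79 and 85.71 TPM, with a log2 fold change of -0.26 ± 0.06 (edgeR adjusted p = 0.0152). This call was lost with limma on log2(TPM + 1) (adjusted p = 0.0864), which called only 14 of 14458 genes higher and 33 lower. Fits without 1 library leave 1 library in a group, so no call is taken from them. The other regulators, named because edgeR called them, were LARP4 (0.26), RPTOR (0.22) and TIAL1 (-0.16). Their edgeR adjusted p were 0.0133, 0.0355 and 0.0495, the last close to the threshold. Of 4 genes that add ubiquitin to ribosomes or remove it, 1 rose, ZNF598, with a log2 fold change of 0.33 ± 0.05 (edgeR adjusted p = 0.00386). With limma on log2(TPM + 1) its adjusted p was 0.113.

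The proteins of the mitochondrial ribosome, a separate set made in the cytosol and imported, gave 3 rises and 0 falls among 78 tested genes, beside 7.00% of all genes higher. Their median log2 fold change was 0.06. MRPS2, with the smallest p, was counted 455 and 504 times without and 594 and 633 times with hemin, a log2 fold change of 0.35 ± 0.08 (SE; edgeR adjusted p = 0.0187). Without untreated replicate 1 it was 0.24. The call was lost with limma on log2(TPM + 1) (adjusted p = 0.154), which called only 14 of 14458 genes higher and 33 lower. The other genes of this set, named because edgeR called them, were MRPL45 (0.24) and MRPL15 (0.23). Their edgeR adjusted p were 0.0411 and 0.0498, both close to the threshold.

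**Figure D5:**
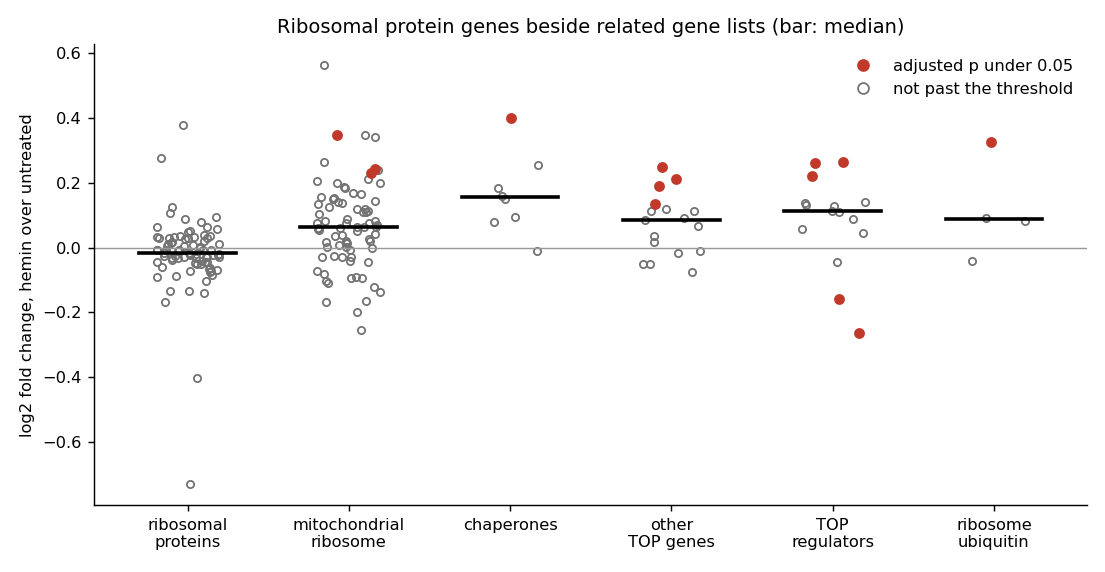
Log2 fold change (hemin over untreated) of tested genes in 6 groups; filled red points passed the adjusted p threshold of 0.05 in edgeR and bars are medians. The ribosomal protein genes hold 0 filled points among 82, and the other TOP genes hold 4 among 17.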

How the data were processed

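The data are RNA-seq libraries of polyadenylated transcripts, 2 from untreated and 2 from hemin-treated K562 cells. The authors trimmed reads with Trimmomatic 0.39 and quantified them with RSEM 1.3.1 and STAR 2.7.5c on GRCh38. The deposited expected counts are estimated reads per gene, not normalized, with multi-mapping reads divided between genes. The authors' TPM are scaled by effective length. Deposited posterior mean counts and SDs, which come from RSEM's sampling, were used as a check. FPKM were not used.

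Rounded counts of the 14458 genes that filterByExpr kept of 61498 entered the quasi-likelihood test of edgeR 4.0.16 (R 4.3.3) after TMM scaling, with Benjamini-Hochberg adjustment over all genes tested and a threshold of 0.05. Confidence intervals are 95% intervals of the fit. DESeq2 1.42.0 and limma 3.58.1 were alternatives. The scripts were tested on simulated data. Coordinates come from GENCODE 44 (GRCh38), which matched all 84 members, and start windows from RefSeq (GRCh38.p14).

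Named members are the 3 largest fitted values in each direction, the 3 highest and 3 lowest levels, paralogs and their namesakes, the stalk proteins with RPS19, RPL5, RPL11 and RPS14, and the 3 largest posterior SDs; in other lists, the smallest p in each direction. The members and lists were chosen with earlier results of these data known. The bound of 0.32 on the log2 scale was chosen after the data were seen. One further list is not reported here.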

Additional observations from a re-analysis of the deposited data

How the results depend on the processing

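Over 16 alternatives, the count of members called was at most 1 higher and 4 lower. One member was called higher without the count filter (1, RPS26), with at least 20 counts per library (1, RPL7L1) and with pseudogene counts added (1, RPS26). Over all genes, these settings called 1464 of 32438, 1232 of 12588 and 1022 of 14407 higher, in this order. Members called lower numbered 2 with library size only (RPL27 and RPL36A), 1 with at least 20 counts per library (RPL36A), 2 with posterior mean counts (RPL39L and RPL36A) and 4 with the length correction (RPL31, RPL27, RPL39 and RPL36A). The same settings called 1358 of 14458, 1265 of 12588, 1357 of 14608 and 1174 of 14458 genes lower, in this order. Leaving out 1 library leaves 1 library in a group, so only effect sizes are given here. Without hemin replicate 1, the log2 fold change was -0.21 for RPL31 and RPS27A, -0.18 for RPL39 and -0.20 for RPL36A. Without hemin replicate 2, it was 0.58 for RPS26. Over such fits the members' median ranged from -0.0495 (untreated replicate 1 left out) to 0.033 (untreated replicate 2 left out). Genes named here outside the rule were chosen after their values were seen. The causes were not tested. With a replicate block, 0 members were called in either direction and their median log2 fold change was -0.0175; over all genes 855 were called higher and 886 lower, against 1012 and 1033. The labels share only a number between conditions: replicate differences correlated with r = -0.0294 over 8993 genes. DESeq2 and limma on log2(TPM + 1) or log2(TPM + 0.1) called 0 members; limma called 14 or 15 genes higher and 33 or 34 lower in all, and GRWD1, NPM1, LARP1, TIA1, ZNF598 and MRPS2 were not among them. With library sizes set to the members' own counts, an alternative chosen after seeing the data, 0 members were called and their median was -0.0131. The difference in the share of TPM, -0.456 percentage points, was -0.6285 without the mitochondrial genome, and ranged from -0.7866 to -0.1253 when 1 library was left out; that in the share of counts, -0.1828, ranged from -0.3195 to -0.046.

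Some small values changed sign, none of them called. With library size only, RPL13A was -0.0118, RPL26 -0.0286, RPL4 -0.0062, RPL5 -0.0014 and RPLP0 -0.0052. On log2(TPM + 1) and log2(TPM + 0.1), RPL13A was -0.0103 on both, RPL22 -0.0429 on both, RPL26 -0.0223 and -0.0224, RPL4 -0.0108 on both and RPLP0 -0.0097 on both. With the length correction, RPL26 was -0.0104 and RPS2 0.0003, and without the count filter RPLP1 was 0.0041 and RPS2 0.004. Leaving out 1 library gave RPL13A -0.0126 to 0.0694, RPL26 -0.035 to 0.0584, RPL26L1 -0.0134 to 0.1978, RPL3 -0.0728 to 0.0166, RPL4 -0.005 to 0.0732, RPL7 -0.0522 to 0.0211, RPL9 -0.1535 to 0.125, RPLP0 -0.0085 to 0.0785, RPLP1 -0.0681 to 0.0578, RPLP2 -0.1261 to 0.0268, RPS14 -0.0953 to 0.0348, RPS19 -0.1026 to 0.0132 and RPS2 -0.0382 to 0.026. RPL39L and RPL22L1 had 30 to 72 counts per library, where small differences were not detectable.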

Other observations

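Of the 1295 pseudogenes named after members, 51 had enough counts to be tested. By edgeR, 2 of them rose and 0 fell, beside the 7.00% and 7.14% of all tested genes called higher and lower. RPL23AP42, the pseudogene with the most counts, had 2723 and 2485 counts without and 2752 and 3116 with hemin, and a log2 fold change of 0.16 ± 0.04 (SE; edgeR adjusted p = 0.0335), whereas RPL23A had -0.06 (adjusted p = 0.604). RPL26P19 had 7 and 4 counts without and 13 and 26 with hemin (log2 fold change 1.79, adjusted p = 0.0479), and its posterior SD amounted to 33.6%.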
